A study of Rattus norvegicus with 6 samples.

Results

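The growth hormone and insulin-like growth factor (IGF) axis of the liver was described through 9 genes: the growth hormone receptor Ghr, its signal carrier Stat5b and feedback inhibitor Socs2, the hormone Igf1 with its plasma partner Igfals, and the IGF binding proteins Igfbp1, Igfbp2, Igfbp3 and Igfbp4. The members were all probe sets for which the platform annotation gives exactly 1 gene symbol and that symbol is one of these 9, which gave 13 probe sets of 31099 on the array. All 9 genes were found, out of 14217 genes named in this way, with 3 probe sets for Igf1, 2 each for Ghr and Igfbp3 and 1 for each of the others. The rule that picks probe sets used no measured value, but the genes were chosen with earlier results of these data known.

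The 6 samples were whole liver RNA from rats on a fat-rich diet, 3 samples in a high-fat group and 3 in a probiotic group. After 30 d of that diet, meant to raise cholesterol in both groups, the high-fat rats received 1 ml of saline daily by gavage for 30 d more while the diet went on, and the probiotic rats received the same volume carrying the lactic acid bacterium Lactobacillus casei Zhang. No group on a normal diet was measured, so every level is that of liver under a fat-rich diet. The labels give neither strain, sex nor age of the rats, nor the time since the last meal, and they do not state that each sample came from its own rat, so the p-values measure the spread between these samples.

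Growth hormone released from the pituitary in pulses binds Ghr on hepatocytes and acts through the kinase Jak2 on Stat5b, which enters the nucleus and switches on Igf1, Igfals and Socs2. The liver is the main source of circulating IGF-1, which travels in a ternary complex with Igfbp3 and the acid-labile subunit encoded by Igfals. Igfbp1 and Igfbp2 are short-term carriers outside that complex, and Igfbp1 is well known as a liver gene that insulin represses and that fasting, glucocorticoids and stress induce.

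The arrays differed in ways that touch these results. The median deposited intensity was 90.05 to 146.9 between arrays, with high-fat sample 2 the highest. The array reads Actb near each end of its transcript, and the 3′ signal minus the 5′ signal, here the Actb gap, widens as RNA is degraded. It was 1.96, 1.59 and 1.96 log2 units in high-fat samples 1, 2 and 3 and 2.11, 3.01 and 2.39 in probiotic samples 1, 2 and 3, so that the groups did not overlap (p = 0.1 by an exact permutation of samples, two-sided and the smallest for 3 against 3). The same gap for Gapdh was 0.52, 0.53 and 0.79 in high-fat samples 1, 2 and 3. In probiotic samples 1, 2 and 3 it was 0.71, 1.49 and 1.23, so for Gapdh the groups overlapped (p = 0.2 by the same permutation). Probiotic sample 2 had the widest gap for both genes. Hepatocyte markers were bright throughout: 8 of 9 listed genes, Alb and Ttr among them, were measured and their lowest deposited intensity on any array was 36205.

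The receptor and the hormone itself, Ghr and Igf1, were bright in both groups, with differences between -0.34 and 0.33 on the log2 scale. Igfals differed by 0.55, Socs2 by 0.28 and Stat5b by -0.23, and the binding proteins Igfbp1 and Igfbp2 had the largest differences, 3.51-fold and 2.01-fold higher in the probiotic group. Neither passed the test across all probe sets, and the Igfbp1 difference was 1.81 on the log2 scale with all samples and 0.67 without probiotic sample 2. Of the 13 probe sets tested with limma, 0 passed at an adjusted p under 0.05, beside 4 of 18625 over the whole table (0.0215%). At an unadjusted p under 0.05 there were 2 of 13, both higher in the probiotic group, where 6.85% of all tested probe sets lay, 2.99% on the higher and 3.86% on the lower side. That count was 0 without high-fat sample 3, 0 without the trend in the variance and 0 with the Actb gap in the model, and 3 with array weights. The groups did not overlap for 1 of 13, against 12.7% of all probe sets tested (6.02% higher and 6.7% lower in the probiotic group). By sign, 8 probe sets had higher and 5 had lower mean values in the probiotic group. Their median difference was 0.13 on the log2 scale, beside 0.00416 over all probe sets tested.

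**Figure D1:**
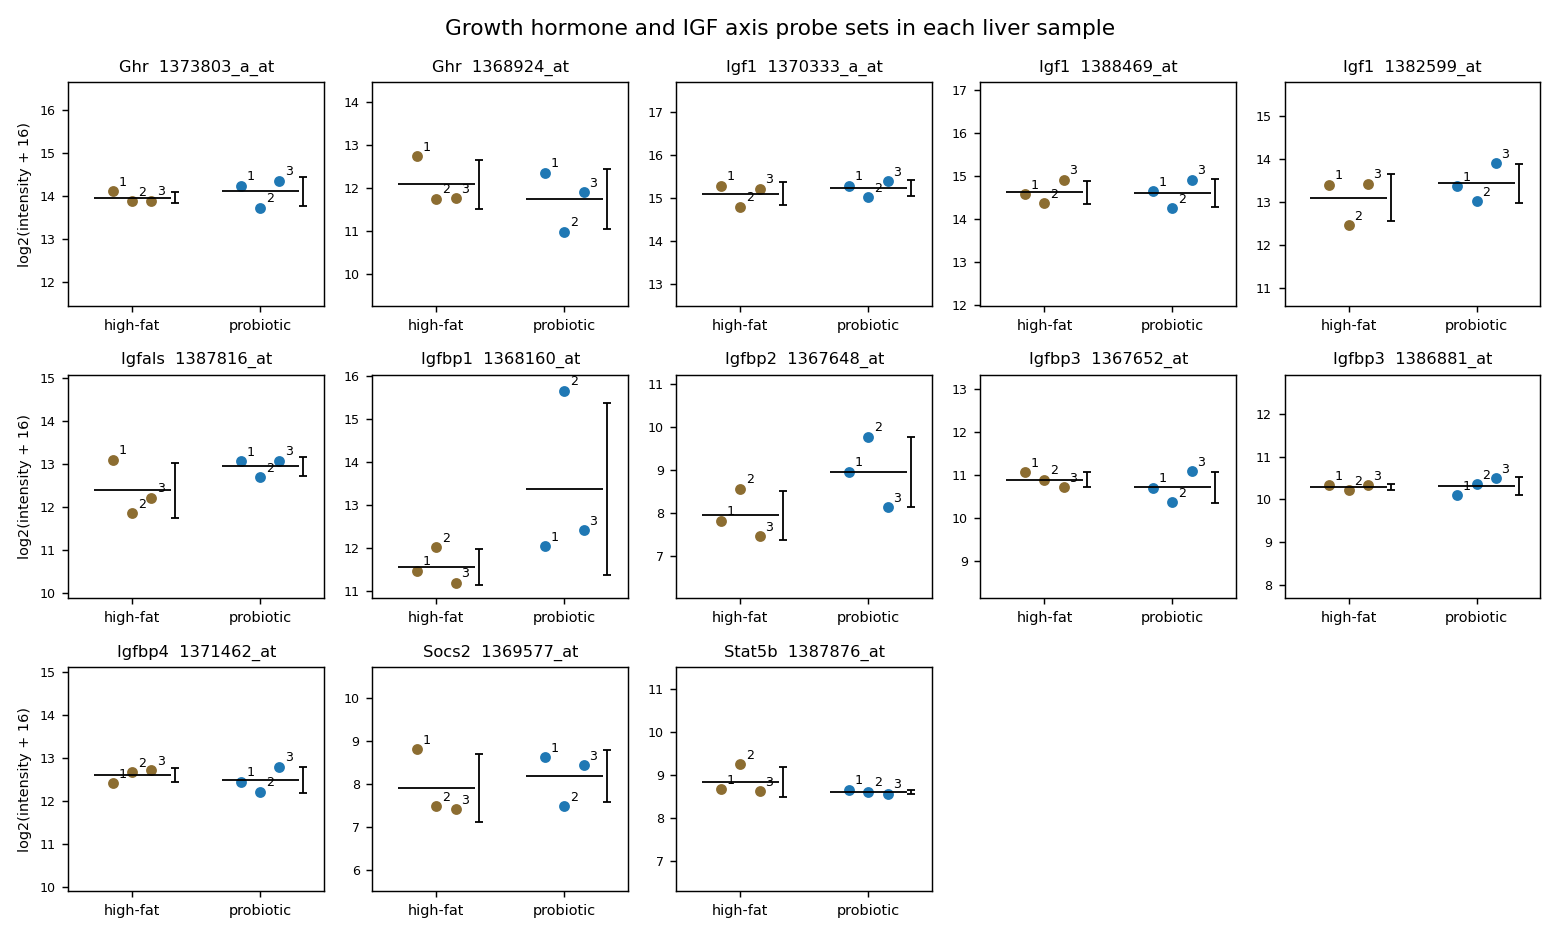
Normalized signal, log2(intensity + 16), of the 13 probe sets in each of the 6 liver samples, 1 panel per probe set, on axes of equal length. Numbered points are the samples of the high-fat (brown) and probiotic (blue) groups, horizontal lines the group means and bars the SD (n = 3); Igfbp1 in probiotic sample 2, at 15.66, stands far from the other 5 samples at 11.19 to 12.41.

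The receptor was read by 2 probe sets, which are not compared with each other in level. The Ghr probe set 1373803_a_at had deposited intensities of 16757, 15886 and 15576 in high-fat samples 1, 2 and 3 and of 19406, 12878 and 20449 in probiotic samples 1, 2 and 3. The probiotic values lay on both sides of the high-fat values. The difference of probiotic minus high-fat was 0.15 on the log2 scale (SE 0.180, 95% confidence interval -0.26 to 0.55, adjusted p = 0.859 with limma). Leaving out probiotic sample 3 gave 0.019, and leaving out probiotic sample 2 gave 0.34. The other Ghr probe set, 1368924_at, had intensities of 6821, 3292 and 3622 in the high-fat samples and of 5228, 2054 and 3829 in the probiotic samples. High-fat sample 1 was the highest and probiotic sample 2 the lowest, 3.32-fold apart, and the groups overlapped. Its difference was -0.34 (SE 0.367, interval -1.17 to 0.49, adjusted p = 0.837), opposite in sign to the first probe set, and it was 0.045 without probiotic sample 2.

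Stat5b, the transcription factor that carries most of the growth hormone signal in hepatocytes, had intensities of 396, 587 and 374 in the high-fat samples and of 397, 360 and 354 in the probiotic samples. Only high-fat sample 2 stood above the rest. The other 5 samples lay between 354 and 397. The difference was -0.23 (SE 0.247, interval -0.79 to 0.32, adjusted p = 0.833) and was -0.034 without high-fat sample 2.

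Socs2, which Stat5b induces and which in turn dampens Ghr signalling, had intensities of 441, 194 and 134 in the high-fat samples and of 389, 157 and 325 in the probiotic samples. High-fat sample 1 and probiotic samples 1 and 3 were high, and the other 3 samples were low, so the split ran across the groups. The mean log2 signal was 8.19 ± 0.608 with the probiotic and 7.91 ± 0.787 without it (SD, n = 3 per group), with a difference of 0.28 (SE 0.443, interval -0.71 to 1.28, adjusted p = 0.895 with limma). Leaving out high-fat sample 1 gave 0.74, and leaving out high-fat sample 3 gave 0.033.

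Igf1, the hormone itself, was bright on all 3 probe sets. The brightest, 1370333_a_at, had intensities of 35954, 32643 and 38285 in the high-fat samples and of 39459, 29513 and 41939 in the probiotic samples, a range of 1.42-fold over all 6 samples. The normalized signal was 15.23 ± 0.196 log2 units with the probiotic and 15.10 ± 0.266 without it (SD, n = 3 per group). The difference of 0.13 (SE 0.163, adjusted p = 0.864 with limma) had an interval of -0.23 to 0.50, that is a fold of 0.85 to 1.41. The probe set 1388469_at gave -0.02 (interval -0.46 to 0.43, adjusted p = 0.991) and 1382599_at gave 0.33 (interval -0.33 to 1.00, adjusted p = 0.803). The last was 0.021 without high-fat sample 2 and 0.55 without probiotic sample 2. On 1382599_at the intensities were 10731, 5364 and 11184 in the high-fat and 10430, 8185 and 14823 in the probiotic samples. After normalization, high-fat sample 2 and probiotic sample 2 were the lowest on each of the 3 Igf1 probe sets, and probiotic sample 3 was the highest or tied for it.

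Igfals, the acid-labile subunit that prolongs the life of IGF-1 in plasma, showed the largest difference on the hormone side. Its intensities were 8822, 3559 and 4924 in high-fat samples 1, 2 and 3 and 8595, 6742 and 8679 in probiotic samples 1, 2 and 3. High-fat sample 1 was as high as the probiotic samples, and high-fat samples 2 and 3 were lower than all of them. The log2 signal averaged 12.95 ± 0.220 with the probiotic and 12.40 ± 0.638 without it (SD, n = 3 per group), or 1.47-fold higher (log2 difference 0.55, SE 0.288, interval -0.09 to 1.20, adjusted p = 0.735 with limma). Without high-fat sample 1 the difference was 0.90 (adjusted p = 0.322), without high-fat sample 2 it was 0.28.

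Igfbp3, the main plasma carrier of IGF-1, is made in liver largely by cells other than hepatocytes. On 1386881_at its intensities were 1258, 1143 and 1313 in the high-fat samples and 1073, 1315 and 1453 in the probiotic samples, with a difference of 0.03 (SE 0.191, interval -0.40 to 0.46, adjusted p = 0.980). On 1367652_at they were 2090, 1817 and 1701 in the high-fat and 1621, 1320 and 2164 in the probiotic samples, with a difference of -0.17 (SE 0.224, interval -0.67 to 0.33, adjusted p = 0.874). The values of the groups interleaved on both. In whole liver, fewer cells of a type and less RNA per cell cannot be told apart, and the endothelial and stellate markers measured beside Igfbp3 overlapped between groups in their summed intensity. It was 5600 to 10313 over 8 endothelial markers in the probiotic and 6391 to 7376 in the high-fat samples, and 5561 to 6122 against 5384 to 7047 over 10 stellate markers. All 9 measured Kupffer cell markers had lower mean values in the probiotic group (median -0.38), with summed intensities of 11452 to 14491 against 14064 to 19243, and their part in the Igfbp3 values was not tested.

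Igfbp4, a binding protein that holds IGF back from its receptor, had intensities of 5448, 6225 and 6646 in the high-fat samples and of 5550, 4790 and 7115 in the probiotic samples. The probiotic samples held both the highest and the lowest value, and the groups overlapped. The difference was -0.11 (SE 0.185, interval -0.52 to 0.31, adjusted p = 0.908 with limma) and was 0.029 without probiotic sample 2.

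Igfbp1 and Igfbp2 stood apart from the other members, Igfbp4 included, by the size of their differences. Their windows just before the start site are printed with those of Igf1 and Igfals, the hormone and its partner, because the first pair had the largest differences between groups and the second pair are the hormone-induced members that had smaller ones. The sequences are from RefSeq (build GRCr8, plus strand for all 4), 5′ to 3′, each 250 bases long and ending at the base before the annotated start. Capitals mark matches to any of the 5 motifs searched on both strands: TTCNNNGAA, the STAT5 site; TGTTTAC, a forkhead site; TGTTTTG, found in insulin response sequences; GTTAAT, an HNF1 half-site; and TATAAA.
Igfbp1, chr14:86261027-86261276: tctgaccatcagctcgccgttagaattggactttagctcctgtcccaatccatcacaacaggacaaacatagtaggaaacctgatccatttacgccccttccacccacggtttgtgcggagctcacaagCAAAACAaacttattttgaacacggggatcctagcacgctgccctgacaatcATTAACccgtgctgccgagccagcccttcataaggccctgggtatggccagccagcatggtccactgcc
Igfbp2, chr9:81864561-81864810: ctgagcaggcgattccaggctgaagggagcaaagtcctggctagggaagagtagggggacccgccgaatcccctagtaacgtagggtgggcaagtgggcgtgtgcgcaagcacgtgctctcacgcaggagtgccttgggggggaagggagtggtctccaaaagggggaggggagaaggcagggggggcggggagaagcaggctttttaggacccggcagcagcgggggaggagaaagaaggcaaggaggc
Igf1, chr7:24172282-24172531: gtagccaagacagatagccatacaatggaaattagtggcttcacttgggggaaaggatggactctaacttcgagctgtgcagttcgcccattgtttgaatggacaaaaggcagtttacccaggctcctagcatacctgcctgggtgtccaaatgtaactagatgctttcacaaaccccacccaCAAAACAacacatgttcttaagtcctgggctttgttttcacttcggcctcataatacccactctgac
Igfals, chr10:14403600-14403849: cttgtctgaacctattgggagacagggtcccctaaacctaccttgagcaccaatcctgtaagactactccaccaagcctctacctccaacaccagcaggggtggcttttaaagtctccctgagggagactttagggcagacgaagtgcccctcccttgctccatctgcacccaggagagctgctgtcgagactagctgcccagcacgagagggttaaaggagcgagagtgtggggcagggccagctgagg

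The Igfbp1 window held CAAAACA, the reverse complement of TGTTTTG, at -121 to -115 and ATTAAC, the reverse complement of GTTAAT, at -69 to -64 from the start. The windows of Igfbp2 and Igfals held none of the 5 motifs, and that of Igf1 held CAAAACA at -67 to -61. Of the 8 members with a window in the table, 2 held TGTTTTG, 1 held GTTAAT, 1 (Igfbp4) held TATAAA, and none held TTCNNNGAA or TGTTTAC. Over all 33469 windows the shares were 5.46% for TGTTTTG, 6.45% for GTTAAT, 12.9% for TATAAA, 7.67% for TTCNNNGAA and 3.21% for TGTTTAC. The Igfbp2 window was 64% G and C, that of Igfbp1 52.8%, that of Igfals 57.2% and that of Igf1 46.8%.

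Igfbp1, the carrier that insulin represses, had intensities of 2775, 3990 and 2407 in high-fat samples 1, 2 and 3 and of 4195, 45401 and 5521 in probiotic samples 1, 2 and 3. All 3 probiotic values lay above all 3 high-fat values, but the lowest probiotic value was only just above the highest high-fat value, and probiotic sample 2 was 18.9-fold above high-fat sample 3. The log2 signal averaged 13.37 ± 1.99 with the probiotic and 11.56 ± 0.416 without it (SD, n = 3 per group). The difference was 1.81 (SE 0.781, interval 0.06 to 3.57), a fold of 3.51 with an interval of 1.04 to 11.9, at an unadjusted p of 0.0444 and an adjusted p of 0.726 with limma. An exact permutation of the samples gave p = 0.1 (two-sided), its minimum for these group sizes. Without probiotic sample 2 the difference was 0.67 (unadjusted p = 0.0309, adjusted p = 0.910 with limma). Probiotic sample 2 also had the widest Actb gap, and adding that gap to the model turned the difference to -0.29. The gap did not overlap between the groups, so a model that holds it cannot tell its part from that of the group. Among all probe sets tested, the spread of Igfbp1 within groups lay at the 99.5th percentile.

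Igfbp2, a binding protein of fetal and fasting liver, had intensities of 218, 373 and 137 in the high-fat samples and of 485, 852 and 256 in the probiotic samples. Probiotic samples 1 and 2 were above all high-fat samples, and probiotic sample 3 lay between high-fat samples 1 and 2. The log2 signal averaged 8.95 ± 0.816 with the probiotic and 7.94 ± 0.568 without it (SD, n = 3 per group). The difference was 1.01 (SE 0.434, interval 0.03 to 1.99), or 2.01-fold, at an unadjusted p of 0.0439 and an adjusted p of 0.726 with limma. It was 0.60 without probiotic sample 2, 1.41 without probiotic sample 3 and 0.65 in the model that holds the Actb gap.

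**Figure D2:**
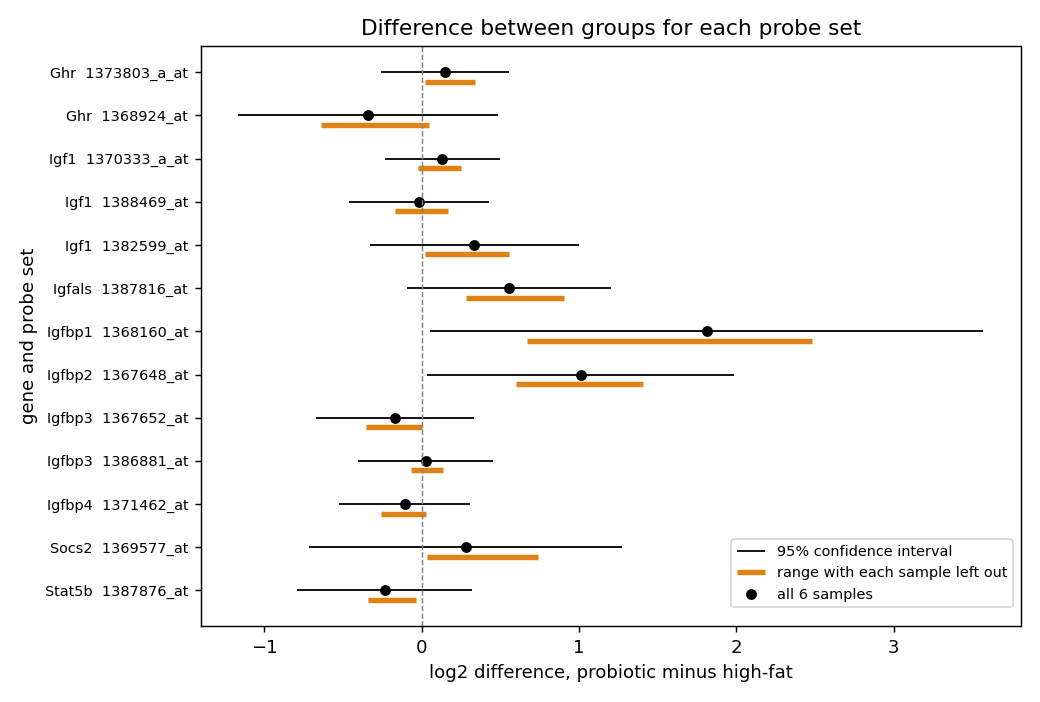
Difference of the group means (probiotic minus high-fat, log2) of the 13 probe sets, with the 95% confidence interval (black) and the range obtained when each sample is left out in turn (orange). The interval excludes 0 for Igfbp1 (0.06 to 3.57) and Igfbp2 (0.03 to 1.99) before adjustment, and the orange range for Igfbp1 runs from 0.67 to 2.48.

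Set out by array after normalization, the extremes lay in different samples for different members. Probiotic sample 2 held the lowest value for 5 of the 13 probe sets (both of Ghr, 1 of Igf1, 1 of Igfbp3 and Igfbp4) and the highest for 2 (Igfbp1 and Igfbp2). Probiotic sample 3 held the highest value for 7 and high-fat sample 1 for 3. In probiotic sample 2 Igfbp1 lay 3.20 log2 units above its mean over the 6 arrays and Igfbp2 1.32 above, while Ghr 1368924_at lay at -0.93 and Socs2 at -0.55 from theirs. High-fat sample 1, probiotic sample 1 and probiotic sample 3 had Socs2 at 0.77, 0.58 and 0.40 and Igfals at 0.43, 0.39 and 0.41 from their means.

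**Figure D3:**
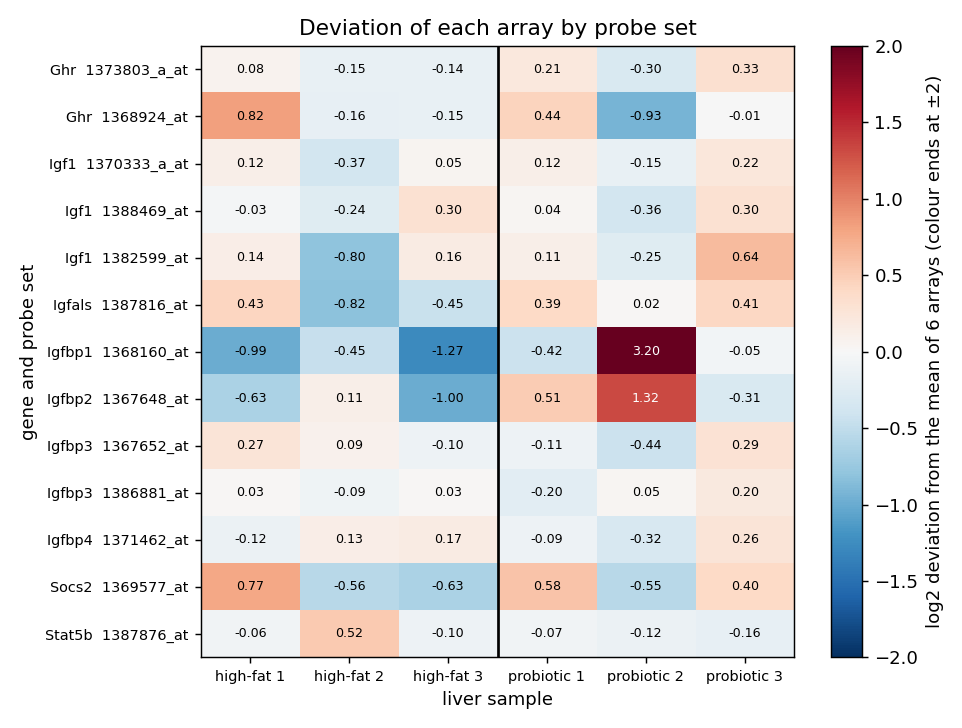
Deviation of each array from the mean of the 6 arrays (log2, colour and printed value) for the 13 probe sets, high-fat samples left of the line and probiotic samples right. Igfbp1 in probiotic sample 2 (3.20) is beyond the colour scale, and Socs2 and Igfals are above their means in the same 3 samples (high-fat 1, probiotic 1 and probiotic 3), with Igfals in probiotic sample 2 at 0.023.

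Over the 6 samples, relations between members were examined after their values had been seen, for the 36 pairs of brightest probe sets of the 9 genes. Both groups were pooled and permuted together, so a group difference that both genes of a pair share enters their correlation. By Pearson's r, 3 pairs had a permutation p under 0.05 before adjustment. They were Igfbp1 with Igfbp2 (Pearson r = 0.86, permutation p = 0.0153; Spearman rho = 0.83, p = 0.0583), Igfals with Socs2 (r = 0.85, p = 0.0444; rho = 0.89, p = 0.0333) and Igf1 with Igfals (r = 0.82, p = 0.0472; rho = 0.84, p = 0.0444), each by an exact test over all pairings. Ghr with Socs2 had an r of 0.83 (exact permutation p = 0.1), and Ghr with Igf1 had the highest rho at 0.93 (exact permutation p = 0.0167). Adjusted over the 36 pairs, 0 passed by Pearson's r (adjusted p = 0.412 for each of the 3) and 0 by Spearman's rho (0.525 for each). Without the 2 samples farthest from the median of the gene named first, r was 0.38 for Igfbp1 with Igfbp2, 0.97 for Igfals with Socs2 and 0.77 for Igf1 with Igfals. For Igfbp1 the samples left out were its highest, probiotic sample 2, and its lowest, high-fat sample 3. Leaving both out narrows its range, so the lower r does not show what the relation rests on.

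The named genes whose pattern was most like that of Igf1 1370333_a_at over the 6 arrays were Aldh2, the mitochondrial aldehyde dehydrogenase (r = 0.996), the transcription factor Zbtb20 (0.994) and Fn3krp (0.994), out of 14282 probe sets of other genes, 109 of which had an r above 0.95. For Igfbp1 they were Adtrp (0.997), Tent5a (0.990) and Tnfrsf12a, the receptor of the cytokine TWEAK (0.990), with 56 of 14284 above 0.95. These values describe likeness over 6 arrays that differ in RNA quality, with the widest Actb gap in probiotic sample 2. Tnfrsf12a had log2 signals of 7.71, 7.97 and 7.64 in the high-fat and 7.74, 10.63 and 8.28 in the probiotic samples. It was picked for its likeness to Igfbp1, so its peak in probiotic sample 2 follows from that choice.

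The rest of the pathway gave 0 probe sets past the adjusted threshold among 29 tested genes of 36 listed, with 16 higher and 13 lower mean values and a median difference of 0.03. At an unadjusted p under 0.05 by limma, 1 was lower and 0 were higher, beside 3.86% and 2.99% of all probe sets tested. Without overlap, 3 were higher and 1 lower, beside 6.02% and 6.7% of all probe sets tested. The one past the unadjusted threshold was Stat3, the transcription factor of the interleukin-6 pathway that growth hormone also activates, with intensities of 2763, 5747 and 7446 in the high-fat and 543, 1441 and 1444 in the probiotic samples. Its log2 difference was -2.26 (adjusted p = 0.688 with limma), and -0.98 on another probe set. With the replicate number as a block its adjusted p was 0.00975. Socs3, a feedback inhibitor induced by Stat3, had -0.84 (adjusted p = 0.732), the adaptor Sh2b1, which binds Jak2, 0.37 (adjusted p = 0.735) and the secreted inhibitor of the IGF-releasing proteases Stc1 0.68 (adjusted p = 0.742). Socs3, whose groups overlapped, gave -0.46 when high-fat sample 2 was left out and -1.30 when high-fat sample 1 was, and Stc1 was 0.31 without high-fat sample 1. Jak2 had -0.47, Stat5a 0.14 and the IGF receptor Igf1r -0.23, all with overlapping groups.

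Further genes of the axis are given here because of their values. Cish, another inhibitor that Stat5 proteins induce, had intensities of 926, 301 and 451 in the high-fat and of 1382, 68.1 and 239 in the probiotic samples on 1378586_at. Probiotic sample 1 and high-fat sample 1 were highest and probiotic sample 2 lowest, 20.3-fold below the highest, and the difference of -0.68 (adjusted p = 0.864 with limma) was 0.26 without probiotic sample 2. Its other probe set, 1388233_at, gave 407, 164 and 149 against 612, 5.9 and 7.6. Bcl6, a repressor that opposes Stat5 at liver genes and that growth hormone lowers, had intensities of 314, 888 and 75.8 in the high-fat and of 670, 3035 and 204 in the probiotic samples. It was highest in probiotic sample 2, where Cish was lowest, and its difference of 1.25 (adjusted p = 0.774) was 0.28 without that sample.

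Igf2, the fetal growth factor that is low in adult rodent liver, lay below the signal filter on all 4 of its probe sets and was not tested. On 1388252_at the intensities were 13.9, 24.5 and 18.9 in the high-fat and 113, 61.2 and 95.8 in the probiotic samples, without overlap, a log2 difference of 1.59 on the scale with 16 added. On 1398322_at they were 15.8, 7.4 and 7.8 against 28.2, 14.5 and 20.2, and on the other 2 the groups overlapped (differences 0.72 and -0.12). With no signal filter the test of 1388252_at gave an adjusted p of 0.770.

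Liver genes that depend on the pulse pattern of growth hormone in rats were split by sign. Of 15 tested, 8 had higher and 7 lower mean values, and 0 passed the adjusted threshold. At an unadjusted p under 0.05 by limma, 1 was higher and 0 were lower, beside 2.99% and 3.86% of all probe sets tested. Without overlap, 1 was higher and 1 lower, beside 6.02% and 6.7% of all probe sets tested. Their median of 0.02 is over genes induced by pulsatile and genes induced by continuous growth hormone, which a change of pattern would move in opposite directions. Cyp3a9, a steroid-metabolizing cytochrome P450, had 0.60 (adjusted p = 0.726), Stac3 1.14 (adjusted p = 0.742), A1bg, which encodes a plasma glycoprotein, -0.69 (adjusted p = 0.765), and Cyp2c7, a retinoic acid hydroxylase, -0.17 (adjusted p = 0.779). Stac3, whose groups overlapped, was 0.35 without high-fat sample 2, A1bg was -0.24 without probiotic sample 2 and Cyp2c7 was -0.054 without probiotic sample 3. Cyp2c11, the steroid hydroxylase induced by pulsatile growth hormone, differed by -0.004284 with an interval of -0.26 to 0.25, and Cyp2c12, which continuous growth hormone induces, by -0.36 with an interval of -1.05 to 0.33.

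Genes of fasting and insulin withdrawal, the setting in which Igfbp1 is known to be induced, had a median difference of 0.45 over 16 tested genes. Of these, 11 had higher and 5 lower mean values, 3 were higher and 0 lower without overlap, and 0 passed the adjusted threshold, with 2 higher and 0 lower at an unadjusted p under 0.05 by limma. Over all probe sets tested, 6.02% were higher and 6.7% lower without overlap, and the median difference was 0.00416. At an unadjusted p under 0.05 by limma, 2.99% of them were higher and 3.86% lower. Among the 11 with higher means, Foxo1 and Nr3c1 were highest in probiotic sample 3 and the rest in probiotic sample 2, which had the widest Actb gap. Foxo1, a forkhead factor that insulin excludes from the nucleus and that drives Igfbp1, had intensities of 642, 550 and 714 in the high-fat and of 749, 2164 and 2524 in the probiotic samples. Probiotic samples 2 and 3 stood above the rest, while probiotic sample 1 lay near the high-fat samples. Its difference was 1.32 (SE 0.398, adjusted p = 0.726), 0.07 on another tested probe set, 1.85 without probiotic sample 1 (adjusted p = 0.0480) and 0.51 in the model that holds the Actb gap. Foxo3, a related factor, had 771, 663 and 857 against 917, 3407 and 1602, a difference of 1.14 (adjusted p = 0.726), with 0.34 on another tested probe set, 0.66 without probiotic sample 2 and -0.022 in that model. Creb3l3, a hepatic factor of the fasting response, had 0.34 (adjusted p = 0.728) and Nr3c1, the glucocorticoid receptor, 0.45 (adjusted p = 0.735), with -0.84 on another Nr3c1 probe set. Nr3c1 was 0.23 without high-fat sample 2 and Creb3l3 was 0.23 without high-fat sample 1. Pck1, the gluconeogenic enzyme that insulin represses, had 0.46 and Irs2, an insulin receptor substrate, 0.67, both with overlapping groups. The labels do not give the time since the last meal. The part of fasting, of insulin or of these genes in the Igfbp1 values was not tested.

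**Figure D4:**
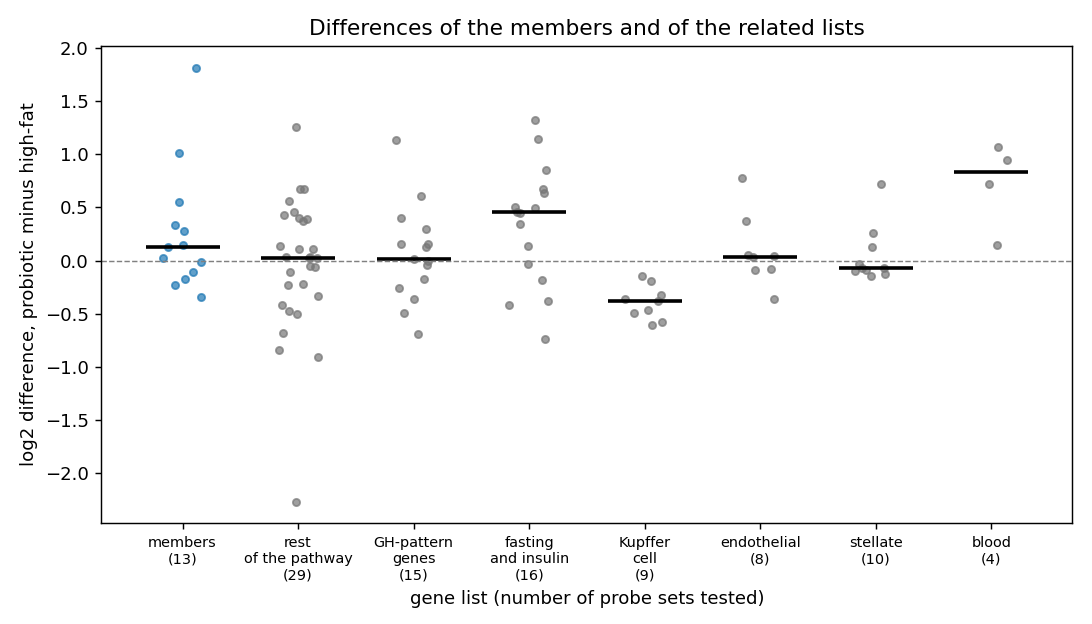
Difference of the group means (probiotic minus high-fat, log2) for the 13 member probe sets (blue) and for the brightest tested probe set of each gene in 7 related lists (grey), with the number tested in brackets; black lines are medians. The medians are 0.13 for the members, 0.03 for the rest of the pathway and 0.45 for the genes of fasting and insulin withdrawal, and the highest member point is Igfbp1 at 1.81.

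Markers of blood and the list for T cells, B cells and neutrophils had summed levels that did not overlap between the groups. The summed levels of the Kupffer cell markers did overlap. The 4 blood markers measured, Hbb and Alas2 among them, summed to intensities of 30347 to 52743 in the probiotic samples and 19689 to 25992 in the others, with 4 of 4 higher in mean value. Hbb made up most of these sums, with 28962 to 49053 in the probiotic and 18861 to 25009 in the high-fat samples. Taken singly, Hbb and Alas2 did not overlap between the groups, while Pf4 and Slc4a1 did. The 5 tested markers of T cells, B cells and neutrophils summed to 602.9 to 698.7 against 946.9 to 1399, with 4 of 5 lower. At an unadjusted p under 0.05 by limma, 3 of the 4 blood markers were higher and 1 of the other 5 was lower. Over all probe sets tested, 2.99% were higher and 3.86% lower at that threshold. At an adjusted p under 0.05, 0 markers of either list passed. Their part in the values of Igfbp1, Igfbp2 and the other members was not tested.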

How the data were processed

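Biotin-labelled cRNA from 8 ug of total liver RNA was read on Affymetrix arrays of 1 colour (per the labels' protocols). The deposited values are linear intensities, 1 for each probe set on each array, and the software behind them is not given in the sources used here. Their mean after trimming 2% at each end was 500 on every array. No file gives counts or detection calls, and precision is limited by the 3 arrays in each group.

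Intensities had 16 added, were taken to log2 and were quantile normalized, which removes overall differences between groups. The 57 control probe sets and those with a mean under the 40th percentile were left out, leaving 18625; the 13 members all passed. Groups were assigned by sample title. Groups were compared by limma 3.58.1 in R 4.3.3 (lmFit, eBayes with trend; two-sided), p-values were adjusted by Benjamini-Hochberg over all probe sets tested, with a threshold of 0.05. Differences are probiotic minus high-fat, and folds on this scale understate changes of dim probe sets. Confidence intervals are at 95%. A list gene was read by its brightest probe set past the filter.

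The members and lists were chosen with earlier results of these data known. From each of the pathway, growth hormone pattern and fasting lists the 4 genes of smallest p were named, and the 3 probe sets of other genes correlating best with Igf1 and with Igfbp1; Jak2, Stat5a, Igf1r, Cish, Bcl6, Igf2, Cyp2c11, Cyp2c12, Pck1, Irs2 and the markers were named after their values were seen. Symbols come from the platform annotation, and all 13 member probe sets matched RefSeq (GRCr8) by gene identifier with 0 symbols changed. Alternatives covered normalization, pseudocount, filter, variance model, array weights, replicate block, the Actb gap and left-out samples. The scripts were tested on simulated data. Figures used matplotlib 3.10.9.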

Additional observations from a re-analysis of the deposited data

How the results depend on the processing

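Each of the 13 probe sets was refitted under 17 other settings, and 0 passed the adjusted threshold under any of them. Igfals, Igfbp2, Socs2, Stat5b, Ghr 1373803_a_at and Igf1 1382599_at kept their sign throughout, with ranges over all settings of 0.28 to 0.90, 0.60 to 1.41, 0.033 to 0.79, -0.34 to -0.022, 0.019 to 0.47 and 0.021 to 0.55. Igfbp1 kept its sign in 16 and had -0.29 with the Actb gap as a covariate. That covariate also turned Ghr 1368924_at (0.33), Igf1 1388469_at (0.17), Igfbp3 1367652_at (0.11) and 1386881_at (-0.12), Igfbp4 (0.13), A1bg (0.22), Foxo3 (-0.022) and Cish (1.22). The Actb gap did not overlap between the groups, so this fit has few comparable samples. Array weights turned Igfbp3 1367652_at (0.019). Without both samples numbered 2, Igf1 1388469_at had 0.037, Igfbp3 1367652_at 0.004264 and 1386881_at -0.029, and Igfbp4 0.063. The cause of these turns was not tested. With each sample left out in turn, the values ranged from -0.64 to 0.045 for Ghr 1368924_at, from -0.024 to 0.25 for Igf1 1370333_a_at, from -0.17 to 0.17 for Igf1 1388469_at, from -0.35 to 0.004545 for Igfbp3 1367652_at, from -0.065 to 0.14 for Igfbp3 1386881_at, from -0.26 to 0.029 for Igfbp4 and from -1.76 to 0.26 for Cish. The count over the whole table was 3 to 12 with single samples left out (12 with probiotic sample 1 omitted, 9 with high-fat sample 1 omitted) and 3 to 6 otherwise.

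With the replicate number as a block the test called 4 probe sets in the whole table, 0 members and 1 gene of the related lists (Stat3, adjusted p = 0.00975). The count for these lists was 0 to 1 with single samples left out, the 1 being Foxo1 without probiotic sample 1. Deviations of same-numbered samples correlated at 0.14, 0.03 and 0.08, so the numbers are not taken to pair the samples, and not every sample correlated best with its own number. The replicate block changed no other call among the genes named. The signal filter kept Igf2 untested, and the dim probe sets of Igf2, Cish and A1bg lie near the floor set by the added 16.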
